A study of Bos taurus with 6 samples.

Results

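The integrated stress response genes described here were ATF4, ATF3, ATF5, DDIT3, TRIB3, CHAC1, ASNS, DDIT4, SESN2 and XBP1. They were picked by name as members of this pathway, with earlier results of these data known, and no threshold on a measured value was used. They make up 10 of the 32183 genes listed for each library. Their RNA was measured by RNA-seq in bovine rumen epithelial primary cells (REPC), which were grown from the rumen wall of a Holstein bull calf (spelled Hostein in the sample labels) that was 2 weeks old and had received only milk replacer. The study treated 3 cultures with 5 mM butyrate for 24 h and compared them with 3 control cultures, to learn how butyrate changes gene activity in these cells. Butyrate is a short-chain fatty acid made by fermentation in the rumen and is an inhibitor of histone deacetylases. Butyrate apart, the labels give no difference between the groups. Because all 6 cultures came from 1 animal, the p-values below measure the spread between its cultures and not between calves.

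The integrated stress response begins when kinases that sense amino acid shortage, unfolded protein in the endoplasmic reticulum (ER), double-stranded RNA or mitochondrial and heme stress phosphorylate the translation initiation factor eIF2. Protein synthesis then slows in general, while the mRNA of the transcription factor ATF4 is translated better, and ATF4 with its partners switches on genes for amino acid supply, for redox balance and for feedback. The ER has further sensors of its own, among them IRE1, which splices XBP1 mRNA, and ATF6. Much of the control in these pathways acts on phosphorylation, translation and splicing, which an mRNA level per gene does not show.

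Each gene's level was given as FPKM, the number of fragments scaled by transcript length and by library size, which allows only a rough comparison between genes and between cultures. Summed over all genes, FPKM came to 678035 to 681912 per control culture and 619401 to 629037 per butyrate culture. Rescaling every culture to the same sum (TPM) moved the median log2 fold change of all genes by 0.12. Fold changes are butyrate over control on log2(FPKM + 0.1), where the added 0.1 makes the change of a rare transcript look smaller than it was. They were tested with limma, with Benjamini-Hochberg (BH) adjustment over the 15813 genes whose mean FPKM was at least 0.1. A gene is said to have risen or fallen where its adjusted p was under 0.05, and is called a differentially expressed gene (DEG) where its Bonferroni-adjusted p was under 0.05 and its log2 fold change beyond 2. Of 11 epithelial marker genes, 8 rose and 1, KRT5, fell (401 to 356 FPKM), while CDH1 and DSP did not pass. Over all genes tested 32.5% rose and 25.9% fell. The summed FPKM of the epithelial markers was 2437 to 2544 in control and 5092 to 5195 after butyrate. KRT8 rose from 1380 to 1971 FPKM, KRT19 from 492 to 1953 FPKM and KRT14 from 72.5 to 500 FPKM. The fibroblast markers were also high in sum, at 4356 to 4512 in control and 6374 to 6715 after butyrate, and all 8 of the 10 that could be tested rose. These markers ranged from VIM, at 2464 and 3641 FPKM, and COL1A1, at 1149 and 1941 FPKM, to PDGFRB and FAP, too low to test. DCN, PDGFRA and LUM were at 6.90, 0.306 and 0.149 FPKM in control. THY1 was a DEG that rose from 21.5 to 87.6 FPKM. The 5 endothelial markers summed to 1.97 to 2.16 and 6.48 to 8.43, and the 6 immune markers to 6.67 to 7.89 and 12.5 to 14.2, with CDH5 and PTPRC at 0 in every culture. The part of these markers in the results below was not tested, and in such bulk RNA fewer cells of a type and less RNA per cell cannot be told apart.

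All 10 stress response genes passed the filter on low values. After butyrate 7 of them rose, against 32.5% of all genes tested, and 1 fell, against 25.9% of all genes. ATF5 and SESN2 did not pass the test. The genes that rose were TRIB3, CHAC1, DDIT3, DDIT4, ATF3, ASNS and ATF4, in order of their fold change, and XBP1 was the one that fell. With both directions together, 8 of the 10 genes changed, where the share over all genes was 58.4%. The butyrate values lay wholly above the control values for 7 genes (36.1% of all genes) and wholly to one side for 9 genes (65.0% of all genes), SESN2 being the one with overlap. An exact permutation test on 1 gene cannot go below p = 0.1 with 3 cultures against 3, and each of these 9 genes was at that value. The median log2 fold change of the 10 genes was 0.50, compared with 0.10 over all genes, whose middle range ran from -0.41 to 0.77. A log2 fold change above 1 was reached by 3 genes (20.0% of all genes). TRIB3 was the only DEG of the 10. Over all genes 2.46% were DEGs with a higher level and 1.51% were DEGs with a lower level.

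**Figure D1:**
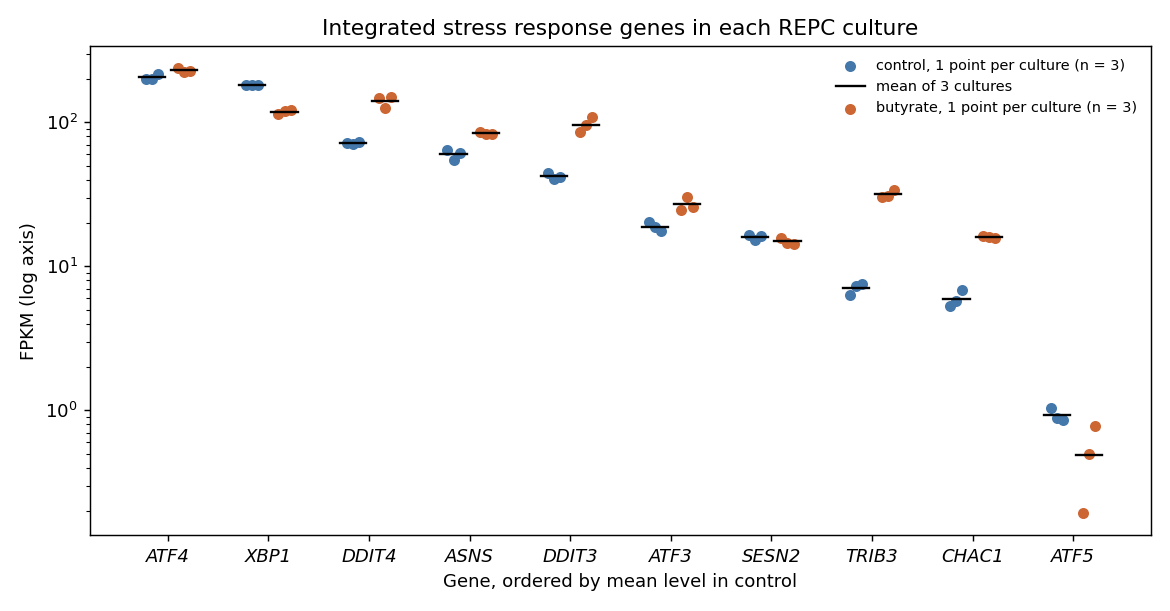
FPKM of each of the 10 genes in each of the 6 REPC cultures, on a log axis, with genes ordered from left to right by their mean in control; each point is 1 culture and each bar is the mean of 3. The points of the 2 groups are apart for every gene but SESN2, and ATF5 lies below the others in every culture.

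ATF4 is the transcription factor at the centre of the response, and its mRNA was the most abundant of the 10. The gene lies at chr5:111462844-111464940 on UMD 3.1, the build named in the submitters' notes and used for all positions here. It stood at 199, 199 and 216 FPKM in the control cultures and at 237, 222 and 227 FPKM in the butyrate cultures. The groups did not overlap, but control replicate 3 came close to butyrate replicate 2. The mean went from 205 ± 9.69 to 229 ± 7.85 FPKM (SD, n = 3 each), a ratio of 1.12 and a log2 fold change of 0.16 (SE 0.05, BH-adjusted p = 0.0198, limma). This call was among the least stable of the set. The adjusted p was 0.0712 without control replicate 1, 0.0723 without control replicate 2 and 0.0682 without butyrate replicate 1. It was 0.11 when limma was fitted without a mean-variance trend, and 0.339, at a log2 fold change of 0.06, when the change was taken relative to the median of all genes.

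ATF3 and ATF5 are bZIP transcription factors of the same pathway, and DDIT3, also known as CHOP, is the one most associated with prolonged ER stress. ATF3 (chr16:72820022-72832974) was at 20.1, 18.6 and 17.6 FPKM in control and at 24.7, 30.3 and 25.7 FPKM after butyrate. All 3 butyrate cultures were above all 3 controls, with a mean of 18.8 ± 1.29 FPKM in control and 26.9 ± 3.0 FPKM after butyrate. The log2 fold change of ATF3 was 0.51 (SE 0.10, BH-adjusted p = 0.0017, limma).

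DDIT3 stood at 44.8, 40.6 and 41.4 FPKM in control and at 85.2, 95.3 and 108.8 FPKM after butyrate. Its lowest butyrate culture was far above its highest control, and the butyrate cultures were more spread out, at 96.4 ± 11.8 FPKM against 42.3 ± 2.21 FPKM. DDIT3 thus rose by a ratio of 2.28, or 1.18 on the log2 scale (SE 0.09, BH-adjusted p = 7.34e-06, limma). DDIT3 lies at chr5:56285007-56289215 and overlaps the methionyl-tRNA synthetase gene MARS by 60 bases. Since no source used here says that the libraries kept strand, reads in the shared bases cannot be assigned to either gene. MARS went from 63.6 ± 3.30 to 66.8 ± 2.39 FPKM and did not pass the test (log2 fold change 0.07, BH-adjusted p = 0.304, limma).

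ATF5 was the rarest of the 10, at 1.03, 0.886 and 0.858 FPKM in control and at 0.193, 0.497 and 0.775 FPKM after butyrate. The butyrate cultures were all lower but spread widely, and the highest of them came close to control replicate 3. The fold change of -0.93 on the log2 scale (SE 0.41) did not pass (BH-adjusted p = 0.0782, limma). The value moved both ways with the culture left out, to -0.50 (adjusted p = 0.197, limma) without butyrate replicate 1 and to -1.29 (0.0268) without butyrate replicate 3. It was -0.39 with a pseudocount of 1 and -1.62 under quantile normalization, where it passed (0.0149). Cufflinks gave a 95% confidence interval for each value, and for ATF5 it reached 0 in 5 of 6 cultures, and the bounds imply roughly 0.50 to 4.17 fragments behind each value. ATF5 lies at chr18:56725591-56729591 and shares 334 of its 4000 bases with NUP62, a nuclear pore gene that fell from 44.8 ± 1.91 to 19.3 ± 1.10 FPKM (log2 fold change -1.21). For the other 9 genes the interval was 3.92% to 27.5% of the value on either side.

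TRIB3 is a pseudokinase that ATF4 and DDIT3 induce and that in turn restrains ATF4. It lies at chr13:61176212-61188197. It had the largest rise of the 10, from 6.36, 7.27 and 7.58 FPKM in control to 30.1, 31.0 and 34.0 FPKM after butyrate. The 2 groups were widely separated, with means of 7.07 ± 0.63 and 31.7 ± 2.07 FPKM and a ratio of 4.48. On the log2 scale TRIB3 rose by 2.15 (SE 0.09, Bonferroni-adjusted p = 0.000126, limma). In the order of all genes tested it came at place 1019 from the largest rise, so 6.44% of genes rose more.

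CHAC1 degrades glutathione and is a target of the ATF4 and DDIT3 branch. The gene (chr10:36598393-36600765) was at 5.29, 5.74 and 6.87 FPKM in control and at 16.3, 15.9 and 15.8 FPKM after butyrate. The treated cultures were tightly grouped, at 15.97 ± 0.27 FPKM against 5.97 ± 0.81 FPKM, and none came near a control. CHAC1 rose by 1.41 on the log2 scale (SE 0.11, BH-adjusted p = 1.01e-05, limma).

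ASNS makes asparagine and is a textbook target of ATF4 under amino acid shortage. The gene spans chr4:15035752-15183476. Its level was 63.8, 54.7 and 61.4 FPKM in control and 85.5, 83.1 and 82.3 FPKM after butyrate. Each treated culture exceeded each control, with means of 59.9 ± 4.69 and 83.6 ± 1.63 FPKM. ASNS rose by 39.5%, or 0.48 on the log2 scale (SE 0.06, BH-adjusted p = 0.00024, limma).

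DDIT4, also called REDD1, and SESN2 (sestrin 2) both hold back the growth kinase complex mTORC1, and both are known ATF4 targets. DDIT4 (chr28:28483402-28485434) stood at 71.6, 70.4 and 73.1 FPKM in control and at 146, 126 and 149 FPKM after butyrate. The treated cultures lay far above control, at 140.3 ± 12.4 FPKM against 71.7 ± 1.34 FPKM. The log2 fold change of DDIT4 was 0.96 (SE 0.07, BH-adjusted p = 4.86e-06, limma).

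SESN2 (chr2:125696403-125714176) was at 16.5, 15.3 and 16.2 FPKM in control and at 15.6, 14.6 and 14.4 FPKM after butyrate. It was the only one of the 10 whose groups overlapped, with means of 15.99 ± 0.63 and 14.9 ± 0.66 FPKM. Its log2 fold change was -0.10 (SE 0.08, 95% interval from -0.28 to 0.07, BH-adjusted p = 0.277, limma), and an exact permutation test, two-sided, gave p = 0.2. Its sign was not fixed, since the value was 0.0185 after rescaling to TPM, and relative to the median of all genes the fold change of SESN2 was -0.21 with an adjusted p of 0.0455. The ratio of DDIT4 to SESN2 was 4.34, 4.61 and 4.52 in the control cultures and 9.36, 8.62 and 10.3 in the butyrate cultures.

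XBP1 is the transcription factor that IRE1 activates by splicing, and it drives genes for ER chaperones and for the disposal of misfolded protein. The gene (chr17:70344598-70349594) was very even in control, at 181, 180.0 and 182 FPKM, and lower after butyrate, at 114, 119 and 121 FPKM. Every treated culture was below every control, with means of 181 ± 0.94 and 118 ± 3.84 FPKM. XBP1 mRNA fell by 34.9%, with a log2 fold change of -0.62 (SE 0.04, BH-adjusted p = 4.3e-06, limma). The FPKM sums the spliced and unspliced forms, which were not separated here.

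**Figure D2:**
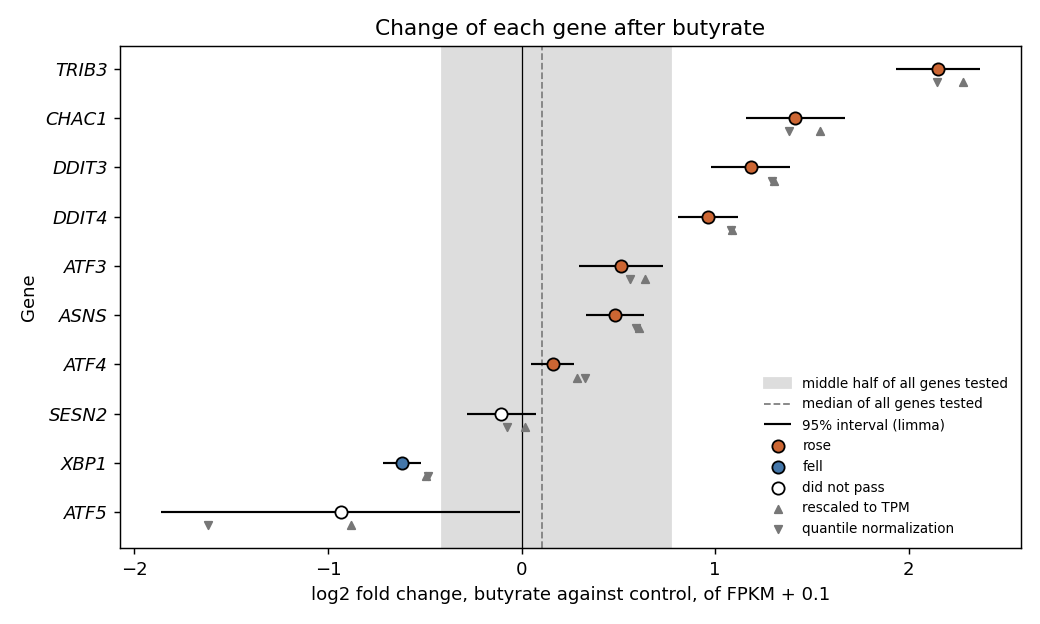
Log2 fold change of each gene, butyrate against control, on log2(FPKM + 0.1), with the 95% interval from limma as a bar and the values after rescaling to TPM or quantile normalization as triangles; the band is the middle range of all genes tested. TRIB3, CHAC1, DDIT3 and DDIT4 lie above the band, XBP1 and ATF5 lie below it, and the triangles of SESN2 fall on both sides of 0.

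The order of the genes by level changed with treatment. In control it ran from ATF4 through XBP1, DDIT4, ASNS, DDIT3, ATF3 and SESN2 to TRIB3, CHAC1 and ATF5, and only the neighbours TRIB3 and CHAC1 had overlapping values. After butyrate DDIT4 came after ATF4 and before XBP1. DDIT3 was next to ASNS and TRIB3 next to ATF3, with overlapping values in both of those pairs, while CHAC1 had moved above SESN2. Together the 10 genes took 0.0869% to 0.0916% of the summed FPKM in control and 0.118% to 0.124% after butyrate.

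Levels were also set against that of ATF4 in the same culture. The ratio of TRIB3 to ATF4 was 0.0345 ± 0.0023 in control and 0.139 ± 0.012 after butyrate (SD, n = 3 each). The ratio of DDIT3 to ATF4 was 0.207 ± 0.017 and 0.422 ± 0.060, and that of CHAC1 to ATF4 was 0.0291 ± 0.0026 and 0.0698 ± 0.0015. The ratio of ASNS to ATF4 moved less, from 0.293 ± 0.024 to 0.366 ± 0.0077. For XBP1 the ratio to ATF4 went down, from 0.885 ± 0.037 to 0.516 ± 0.033. XBP1 stood to DDIT3 at a ratio of 4.29 ± 0.22 in control and 1.23 ± 0.11 after butyrate. In all 6 ratios the control and butyrate cultures did not overlap.

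Over the 6 cultures, the genes whose log2 level most resembled that of ATF4 were CREM, a cAMP-responsive factor (Pearson's r = 0.992), ZNF438 (0.990) and TGFBR3L (0.988). CREM went from 2.33 to 4.64 FPKM. For DDIT3 they were CDKN2D, an inhibitor of cyclin-dependent kinases that went from 17.1 to 30.4 FPKM (r = 0.999), YPEL2 (r = 0.999) and NOL3 (r = 0.998). An r above 0.95 was shared by 63 of 11046 genes with ATF4 and by 1741 with DDIT3. The cultures form 2 treatment groups, so these values mainly describe the difference between the groups, and they are given as a description.

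The counts in the lists that follow stand against 32.5% of all genes that rose and 25.9% that fell. Of 21 genes for initiation control, which act before ATF4, 1 rose, 10 fell and 10 did not pass, with a median log2 fold change of -0.24. After rescaling to TPM 4 rose and 7 fell, with a median of -0.11. Without control replicate 1, 2 rose and 7 fell. Among the kinases of eIF2, EIF2AK1 (HRI), EIF2AK3 (PERK) and EIF2AK4 (GCN2) did not pass, at log2 fold changes of -0.11, 0.21 and 0.30. After rescaling to TPM the value of EIF2AK1 was 0.0151, and EIF2AK3 and EIF2AK4 passed as rises (BH-adjusted p = 0.0194 and 0.0218, limma). EIF2AK3 also passed without control replicate 1 (0.0399), and EIF2AK4 when limma was fitted without trend (0.0382). EIF2AK2 (PKR), the sensor of double-stranded RNA, fell from 6.93 ± 0.45 to 5.12 ± 0.96 FPKM (log2 fold change -0.44). That call ended without control replicate 1 or 3, without butyrate replicate 2 or 3 and after rescaling to TPM, at adjusted p-values between 0.0836 and 0.103 from limma. It also ended without a filter on low values (0.0507) and without trend (0.0526).

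The 5 subunits of eIF2B, the exchange factor that phosphorylated eIF2 blocks, fell, although EIF2B3 did not after rescaling to TPM (log2 fold change -0.18, BH-adjusted p = 0.142, limma). EIF2B5 went from 23.3 ± 2.41 to 10.3 ± 0.69 FPKM and EIF2B1 from 39.2 ± 2.68 to 19.5 ± 2.13 FPKM, with log2 fold changes of -1.17 and -1.01. EIF2B2 and EIF2B4 were at -0.80 and -0.59. EIF2B3 was at -0.30, and its call also ended without control replicate 1 (adjusted p = 0.0752), control replicate 2 (0.0836) or butyrate replicate 3 (0.0771) in limma. EIF2A, an alternative initiation factor, fell from 26.1 ± 1.48 to 13.1 ± 0.98 FPKM.

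Neither regulatory subunit of the eIF2 phosphatase passed the test. PPP1R15A (GADD34), an ATF4 target that directs dephosphorylation of eIF2, was at 5.49, 5.49 and 5.40 FPKM in control and at 4.98, 5.46 and 5.68 FPKM after butyrate. These groups overlapped, and the log2 fold change was -0.02 (95% interval from -0.28 to 0.23), with the sign turning to 0.0973 after rescaling to TPM and to 0.0283 without butyrate replicate 1. PPP1R15B, its constitutive relative, was at a log2 fold change of 0.05. The catalytic subunit genes differed in direction. PPP1CB was the gene of the list that rose, from 60.7 ± 0.42 to 84.4 ± 1.93 FPKM, and PPP1CC fell from 45.5 ± 1.61 to 32.1 ± 1.88 FPKM (log2 fold change -0.50). PPP1CA was at 180.0 ± 8.39 and 181 ± 0.40 FPKM and did not pass, but did as a rise after rescaling to TPM (BH-adjusted p = 0.0342, limma) and under quantile normalization (0.0351).

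Of the 17 bZIP partners and ER-bound factors, CEBPB was not listed under that name and BATF was at 0 in every culture. Of the other 15, 6 rose, 1 fell and 8 did not pass, and the median log2 fold change was 0.19. That median was 0.08 without control replicate 3, 0.10 without butyrate replicate 1 and 0.31 after rescaling to TPM. CEBPA had the largest rise, at 0.440, 0.930 and 1.85 FPKM in control and 3.95, 6.07 and 6.09 FPKM after butyrate (log2 fold change 2.39, SE 0.42). CEBPD, another C/EBP factor, was abundant and rose from 350 ± 4.91 to 730.1 ± 9.28 FPKM (log2 fold change 1.06). JDP2, a repressor of the ATF3 family, rose from 6.48 ± 0.36 to 12.3 ± 1.92 FPKM, and CEBPG, a dimer partner of ATF4, from 29.0 ± 0.33 to 44.1 ± 1.95 FPKM. ATF1 was the one that fell, from 12.8 ± 1.66 to 7.99 ± 0.23 FPKM, and ATF6 did not pass (log2 fold change 0.15).

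The ATF4 metabolic and secreted targets were split. Of the 34 that could be tested, 19 rose, 7 fell and 8 did not pass, and the median log2 fold change was 0.59. The hormone gene FGF21 was listed at 0 in all 3 controls and at 0.623, 0.482 and 1.08 FPKM after butyrate. NUPR1, a stress-induced nuclear protein, rose from 1.01 ± 0.22 to 4.58 ± 0.22 FPKM, and ALDH1L2, a mitochondrial folate enzyme, from 2.85 ± 0.28 to 11.2 ± 0.75 FPKM. GDF15, a secreted stress signal, rose from 29.7 ± 5.35 to 65.8 ± 3.68 FPKM (1.16). The 3 enzymes of serine synthesis gave different results. PSAT1 rose from 58.5 ± 4.06 to 117 ± 6.51 FPKM (log2 fold change 1.00), and PHGDH, at 199 ± 5.31 and 212 ± 4.26 FPKM, did not pass (0.10) except as a rise under the TPM and quantile scalings. PSPH fell from 99.6 ± 1.22 to 86.9 ± 8.79 FPKM (-0.20, BH-adjusted p = 0.0377, limma). The call of PSPH ended when any culture but butyrate replicate 3 was left out, at adjusted p-values between 0.0738 and 0.117, and under both scalings. It also ended without a filter on low values (0.0627, limma) and without trend (0.119).

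The largest fall among these targets was that of CTH, the enzyme that makes cysteine from cystathionine. It was at 32.4, 32.2 and 32.9 FPKM in control and at 7.32, 5.38 and 8.95 FPKM after butyrate. It was the only DEG of the list, at a log2 fold change of -2.19 (SE 0.16), while CBS, the enzyme one step before it, rose from 23.3 ± 1.77 to 49.1 ± 1.39 FPKM (1.07). The glutamine carrier SLC1A5 fell from 145 ± 6.79 to 69.8 ± 6.28 FPKM, and the folate enzyme MTHFD2 from 20.5 ± 1.48 to 11.0 ± 0.52 FPKM. The mitochondrial folate enzymes ALDH1L2 and MTHFD2 thus had opposite signs, at log2 fold changes of 1.94 and -0.89.

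Of the 20 cytosolic aminoacyl-tRNA synthetases, which load amino acids onto tRNA, 7 rose, near the share of 32.5% over all genes, 10 fell, against 25.9%, and 3 did not pass. The median log2 fold change was -0.13. After rescaling to TPM and under quantile normalization 9 rose and 9 fell, with medians of -0.0115 and -0.0133. The largest rises were those of IARS, from 25.5 ± 2.26 to 38.5 ± 1.71 FPKM, of WARS, from 150.4 ± 1.98 to 217 ± 18.2 FPKM, and of CARS, from 67.5 ± 1.98 to 89.7 ± 0.60 FPKM. The largest falls were those of VARS, from 125 ± 4.35 to 52.0 ± 3.41 FPKM, of LARS, from 26.1 ± 0.94 to 12.2 ± 1.23 FPKM, and of DARS, from 80.9 ± 1.08 to 40.0 ± 4.60 FPKM. Textbook accounts of ATF4 include some synthetases and not others, and the split by that rule was made after the values were seen, so it has no test. Among the 12 usually counted as ATF4-responsive, 7 rose, LARS and YARS fell, and EPRS, MARS and NARS did not pass. The fall of YARS was lost under both scalings and without any culture but butyrate replicate 3, at adjusted p-values between 0.0619 and 0.117 in limma. It was also lost without trend (0.113) and with the replicate block (0.0735). Under both scalings EPRS and MARS passed as rises and the sign of NARS turned. NARS passed as a fall with a pseudocount of 0.01 (BH-adjusted p = 0.0439, limma), with a pseudocount of 1 (0.0499) and without a filter on low values (0.0337). All 8 others fell, with log2 fold changes from -1.26 to -0.39.

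**Figure D3:**
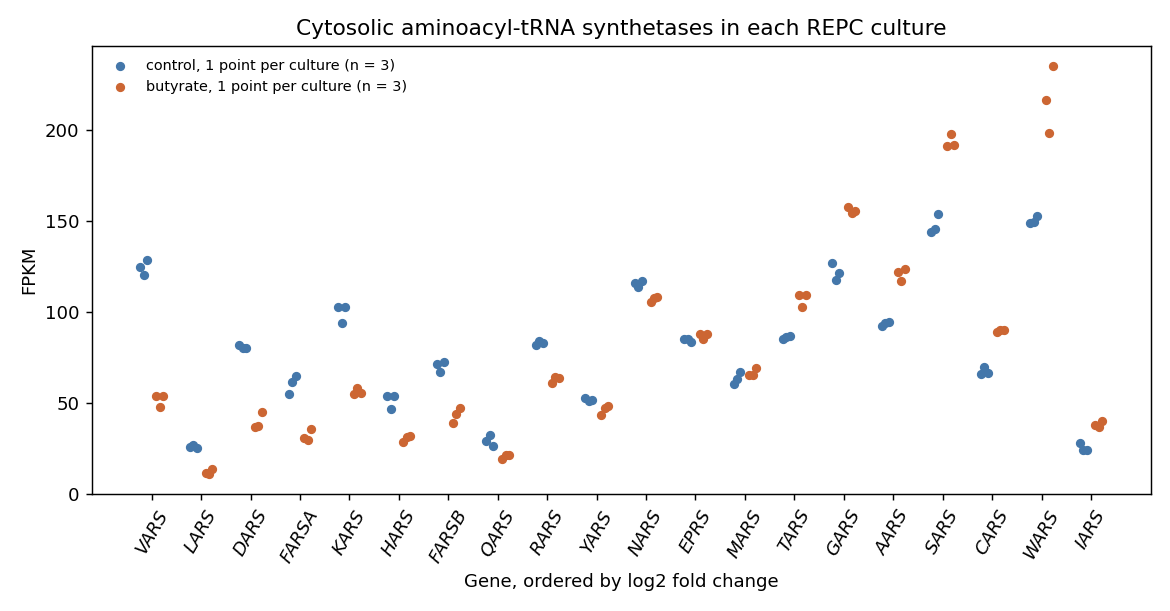
FPKM of the 20 cytosolic aminoacyl-tRNA synthetase genes in each culture, ordered from left to right by log2 fold change, with 1 point per culture and 3 per group. VARS on the left is at 120.2 to 129 FPKM in control and 48.1 to 54.2 FPKM after butyrate, and the genes on the right from TARS to IARS are higher after butyrate in every culture.

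Most genes in the list of ER chaperones and ER-associated degradation were lower, as XBP1 was. Of the 26 that could be tested (ERN1, the gene of IRE1, was not listed under that name), 20 fell, 1 rose and 5 did not pass, and the median log2 fold change was -0.54. Their summed FPKM was 5056 to 5137 in control and 3065 to 3125 after butyrate. HSPA5, the main ER chaperone, known as BiP, was at 615, 623 and 620 FPKM in control and at 245, 245 and 254 FPKM after butyrate (log2 fold change -1.32, SE 0.03). CRELD2 had the largest fall and was a DEG, from 153 ± 6.55 to 33.3 ± 0.74 FPKM (log2 fold change -2.20). The secreted ER stress factor MANF fell from 476 ± 14.6 to 135 ± 7.15 FPKM, and the chaperone HYOU1 from 61.6 ± 0.53 to 24.1 ± 2.24 FPKM. DERL3 was the gene that rose (13.9 ± 1.61 to 17.04 ± 0.81 FPKM), a call that ended without control replicate 2 or 3 and without butyrate replicate 1 or 2, at adjusted p-values between 0.0616 and 0.0921 from limma. That call also ended when limma was fitted without trend (0.0616), where 0 genes of the list rose and 17 fell. The chaperone genes HSP90B1 and DNAJB9 fell as well, at log2 fold changes of -1.29 and -0.57. Besides DERL3, the degradation genes were mixed. SYVN1, DERL2 and DERL1 fell (log2 fold changes -0.62, -0.50 and -0.24), while HERPUD1, EDEM1 and SEL1L did not pass (0.04, 0.15 and 0.15). ERO1A and ATF6 did not pass either.

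Of 6 close relatives of these genes, 2 rose, 1 fell and 3 did not pass, with a median log2 fold change of 0.40. These figures were not stable. Under quantile normalization 0 rose and 1 fell, with a median of 0.03, and with a minimum mean FPKM of 1 the median was 0.08. With any one of control replicates 2 and 3 or butyrate replicate 2 left out, without trend, with TPM or with the replicate block 0 fell. TRIB1 fell slightly, from 67.9 ± 0.52 to 61.1 ± 2.67 FPKM, and TRIB2 did not pass, at 2.16 ± 0.61 and 1.42 ± 0.19 FPKM. The fall of TRIB1 was no longer called when any one of the controls or butyrate replicate 2 was left out, with adjusted p-values between 0.0665 and 0.0839 in limma, nor without trend (0.105) or with the replicate block (0.0578). Its log2 fold change of -0.15 was -0.0299 after rescaling to TPM (0.642) and -0.0607 under quantile normalization (0.391). TRIB2 passed as a fall without control replicate 1 (0.0482) and under quantile normalization (0.00843). CHAC2 did not pass, at 2.26 ± 0.53 and 2.79 ± 0.28 FPKM. SESN1 rose from 3.34 ± 0.18 to 4.73 ± 0.23 FPKM, a call that ended under quantile normalization (adjusted p = 0.0526, limma). SESN3 did not pass, at 0.685 ± 0.040 and 1.09 ± 0.15 FPKM, but passed as a rise with a pseudocount of 1 (0.0406), without trend (0.00707) and after rescaling to TPM (0.0301). DDIT4L, the relative of DDIT4, rose from 0.247 ± 0.073 to 0.734 ± 0.264 FPKM, and its adjusted p in limma was 0.0512 without control replicate 1, 0.0628 without butyrate replicate 3 and 0.258 under quantile normalization.

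Of 18 genes for mTORC1 control, on which DDIT4 and SESN2 act, 4 rose, 5 fell and 9 did not pass, so that 9 of 18 changed, where 58.4% of all genes did, and the falls were near the share of 25.9%. The median log2 fold change was -0.06, between -0.05 and -0.02 when 1 culture was left out, with -0.02 without butyrate replicate 3, and 0.06 after rescaling to TPM. TSC2, a subunit of the complex through which DDIT4 inhibits mTORC1, rose from 17.6 ± 0.37 to 33.6 ± 1.77 FPKM. GATSL3, the older name of the arginine sensor CASTOR1, rose from 20.6 ± 0.25 to 38.1 ± 1.34 FPKM. DEPTOR, an inhibitory subunit, was listed at 0 in the 3 controls and at 0.230, 0.418 and 0.582 FPKM after butyrate. The largest falls were those of SEH1L, of the GATOR2 complex, from 54.8 ± 3.70 to 20.7 ± 1.55 FPKM, of MLST8, a core subunit, from 40.8 ± 1.98 to 21.7 ± 1.09 FPKM, and of AKT1S1, also called PRAS40, from 23.8 ± 2.60 to 13.5 ± 0.66 FPKM.

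**Figure D4:**
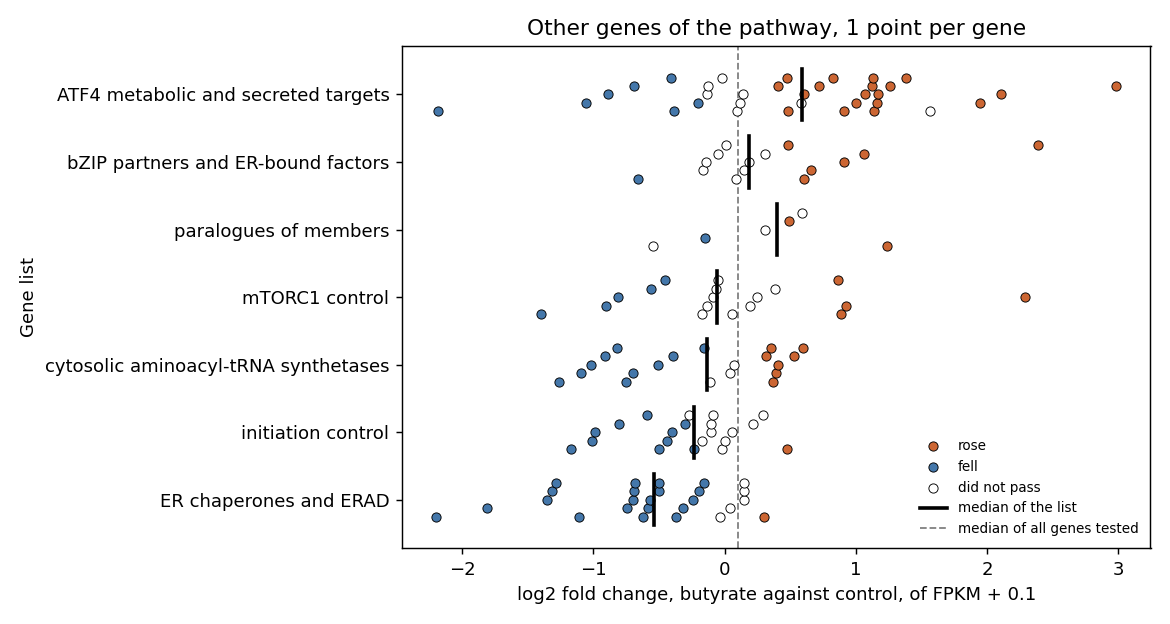
Log2 fold change of each tested gene in the 7 lists of pathway genes, butyrate against control, with 1 point per gene coloured by whether it rose, fell or did not pass; thick bars are list medians and the dashed line is the median of all genes, 0.10. The medians run from 0.59 for ATF4 metabolic and secreted targets down to -0.54 for ER chaperones and ERAD.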

How the data were processed

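RNA-seq from 6 REPC cultures was used, grouped by the treatment in the sample labels. Per the submitters' processing notes and the study's methods, the authors trimmed reads with Trim Galore 0.4.1, aligned them with STAR, kept uniquely mapped reads and computed gene-level FPKM with Cufflinks on UMD 3.1. Versions of STAR and Cufflinks are not given in the sources used here. The authors deposited FPKM with 95% confidence bounds per gene and culture, and no read counts, so no count test was run. The paper reports the total of clean reads over the RNA-seq libraries and their mean mapping rate. Depth per gene was taken here only from those bounds. They imply roughly 52.8 to 2610 fragments per value for the 9 genes other than ATF5.

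Rows were joined by gene ID, name and position, since 214 rows have no gene ID. Coordinates are those of the deposited tables. Their sequences were named as chromosomes by where most of their genes lie in the study's gene lists (1139 of 1142 genes placed). A failed estimate removed 2 genes. Values of log2(FPKM + 0.1) were fitted in R 4.3.3 with limma 3.58.1, which modelled the spread by level, and the fit was tested on simulated data. Exact permutation tests compared the difference of group means over all splits of the 6 cultures into 3 and 3. Of 176 list entries, 173 were found in the tables by symbol or older symbol.

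The 10 genes, the lists and the named genes were chosen with earlier results of these data known. The rule named, per list, up to 3 genes with the largest rise and 3 with the largest fall, all relatives of the 10 genes, and for ATF4 and DDIT3 the 3 most similar genes. The other genes named (the eIF2 kinases, EIF2B2 to EIF2B4, PPP1R15A, PPP1R15B, CEBPG, ATF6, PPP1CA, PPP1CC, the cell type markers, PSAT1, PHGDH, PSPH, GDF15, CBS, HSPA5, HSP90B1, DNAJB9, SYVN1, DERL1, DERL2, HERPUD1, EDEM1, SEL1L, ERO1A, MARS, NUP62, and YARS, EPRS, NARS and TARS) were chosen after their values were seen. JDP2, CEBPB, CEBPG, CARS, PPP1R15A, EIF4EBP1 and ATF6 stand in 2 lists each. The fits were repeated with other pseudocounts, filters and scalings, without the trend, with a replicate block, with a fold threshold and without each culture.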

Additional observations from a re-analysis of the deposited data

How the results depend on the processing

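Rescaling to TPM moved the median log2 fold change of all genes by 0.12, quantile normalization by -0.15 and centring on that median, an alternative chosen after seeing the data, by -0.10. TRIB3, CHAC1, DDIT3, DDIT4, ATF3, ASNS and XBP1 kept their direction and their call in all 15 alternatives that added no fold threshold, and TRIB3 stayed between 2.02 and 2.28. Of the 10 genes, 2 fell rather than 1 under quantile normalization and under centring. With a log2 fold change beyond 1 also required, 3 rose and 0 fell, so DDIT4, ATF3, ASNS, ATF4 and XBP1 lost their call. When 1 culture was left out, 6 to 7 rose and 1 to 2 fell. ATF4 lost its call and ATF5 and SESN2 gained one under the alternatives given with their values. The cause was not tested. After rescaling to TPM the log2 fold change was 0.0185 for SESN2, 0.0151 for EIF2AK1 and 0.0973 for PPP1R15A, none of which passed. PPP1R15A ranged from -0.0645 to 0.0283 when 1 culture was left out, and was above 0 without butyrate replicate 1. PPP1CA ranged from -0.0338 to 0.0280 and was below 0 without control replicate 1. NARS, at -0.11, was at 0.0147 with TPM and 0.0650 under quantile normalization, and passed as a fall with either other pseudocount and without a filter. A minimum mean FPKM of 1 removed ATF5. The lists kept the sign of their median except that for mTORC1 control, although several medians moved by over 1.5 times, and the number of risen genes among initiation control and ER chaperones ranged up to 4 after rescaling to TPM.

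Control and butyrate cultures with the same replicate number deviated from their group means with correlations between -0.004 and 0.023, so the number was not taken to pair them. With the replicate block, 7 of the 10 genes rose and 1 fell, and no call of the 10 genes changed.

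FPKM without counts limits what can be said of rare transcripts such as ATF5, FGF21, DEPTOR and DDIT4L. All cultures came from 1 calf and 1 time point, and protein, phosphorylation and XBP1 splicing were not measured.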
